A study of Danio rerio with 5 samples.

Results

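The endogenous *myc* family and Max network of zebrafish neuroblastoma cells was followed through 10 genes chosen by symbol: the 6 *myc* genes *myca*, *mycb*, *mycn*, *mych*, *mycla* and *myclb*, and the 4 genes *max*, *mxi1*, *mxd3* and *mxd1*. All 10 are listed among the 30647 gene names of the files. Both groups carry EGFP and a human MYCN transgene under the dopamine β-hydroxylase promoter, which is active in sympathetic and adrenal lineage cells, and EGFP+ cells were sorted from tumors of juvenile fish of the AB background. The 3 *lmo1*-/- libraries come from fish homozygous for a CRISPR-Cas9 deletion in exon 2 of *lmo1* that leads to a premature stop, a line established from a single mutant allele. The 2 *TATA/TATA* libraries come from fish homozygous for a T in place of G at a GATA site in the first intron of *lmo1*, knocked in with TALENs, a line that also carries a pair of further base changes beside the site. Sample ages are not given in the labels, nor whether a library was made from 1 fish or from several, so the p values measure the spread between these libraries alone. The members are fish genes, and the transgene has no gene name of its own in the files. No tumor with an unedited *lmo1* gene is among these libraries. Words such as rose and fell compare *TATA/TATA* with *lmo1*-/- alone, and an effect of either edit cannot be told apart from that of the other.

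MYC proteins are transcription factors that bind DNA as heterodimers with Max and turn on genes of growth, ribosome production and metabolism. The Mxd proteins, among them Mxi1, compete for the same Max partner and recruit Sin3 repressor complexes to the same E-box sites. In human neuroblastoma, amplification of MYCN marks high-risk tumors, and cells with high MYCN or MYC often hold the other family members at low levels. Zebrafish have duplicates of MYC (*myca* and *mycb*) and of MYCL (*mycla* and *myclb*), a single *mycn*, and *mych*, a fish paralog needed for the survival of neural crest cells in zebrafish embryos.

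Between 48144549 and 55782865 reads were counted on genes per library, and a count of 1 on 1 kb of exon is worth 0.0129 to 0.0156 RPKM (reads scaled to exon length and to the reads mapped). All 15 sympathoadrenal markers passed the minimum level of the test, with a summed level of 1754 to 2529 RPKM across *lmo1*-/- and 1364 to 1453 RPKM across *TATA/TATA* libraries. The mean of *lmo1* itself was 29.2 RPKM for *lmo1*-/- and 13.1 RPKM for *TATA/TATA* tumors, and a count over all exons does not check a short deletion. The 17 macrophage markers summed to 108 to 193 RPKM across *lmo1*-/- and 2765 to 2888 RPKM across *TATA/TATA* libraries, and none of them was at a count of 0 in either genotype. The genotype comparison used edgeR's quasi-likelihood test after TMM scaling, with Benjamini-Hochberg adjustment over all genes tested and a threshold of 0.05, and log2 fold changes are given as *TATA/TATA* over *lmo1*-/-. The test took in the 13484 genes that reached 1 RPKM in 2 or more libraries, 8 members among them, while *mycn* and *myclb* are given from an unfiltered fit of the 25459 genes that had any read.

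Every endogenous *myc* gene had a higher level in both *TATA/TATA* libraries than in any *lmo1*-/- library. The same was true of 54.2% of the tested genes in RPKM and of 32.3% in TMM-scaled read counts. No such share was computed for genes below the minimum level, such as *mycn* and *myclb*. *mych* was 9.31-fold, *myca* 7.87-fold, *mycla* 6.38-fold and *myclb* 4.79-fold higher in *TATA/TATA* tumors after TMM scaling, and these 4 genes passed the threshold. *mycb* and *mycn* were higher in the same direction without passing it. None of *max*, *mxi1*, *mxd3* and *mxd1* passed it in either direction, nor at an unadjusted p under 0.05 or by DESeq2. In the unfiltered fit, which does not choose genes by their level, 4 of the 10 members were called higher in *TATA/TATA*, compared with 15.0% of all genes in that fit. Among the genes tested above the minimum level, 19.9% were called higher and 16.7% lower, and *myca*, *mych* and *mycla* passed that minimum only through the *TATA/TATA* libraries. No member was called lower by edgeR, and none was lower at an unadjusted p under 0.05 or by DESeq2.

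**Figure D1:**
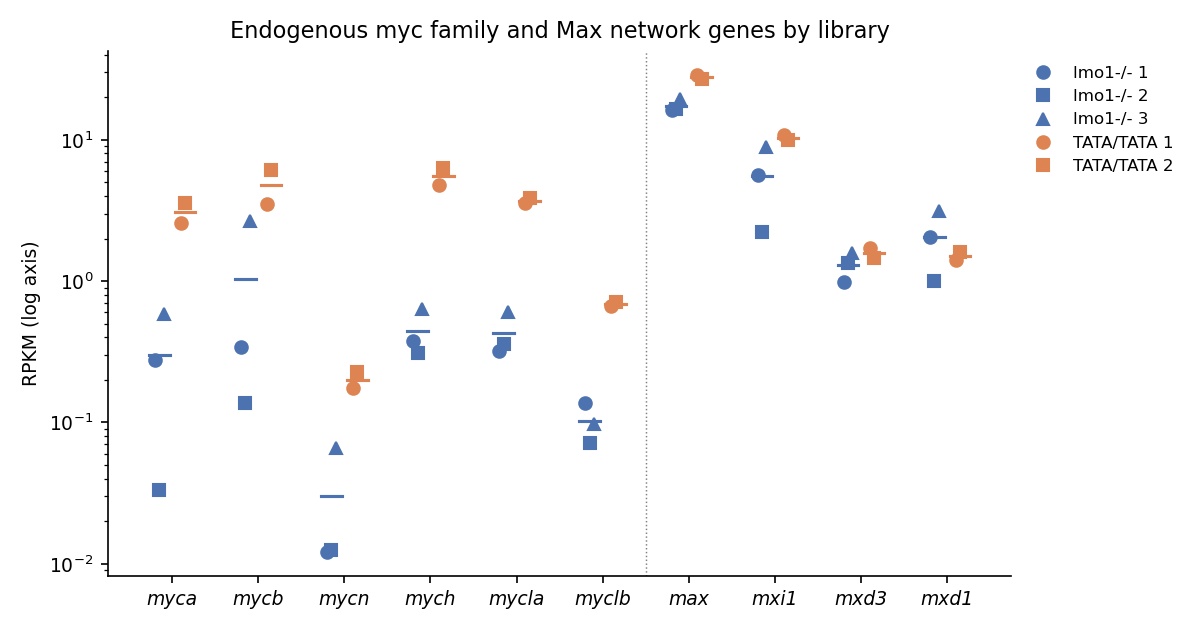
RPKM on a log axis of the 10 member genes in each library, with blue symbols for the 3 lmo1-/- libraries, orange symbols for the 2 TATA/TATA libraries, symbol shapes for the replicate number and short lines for the genotype means. The orange points of all 6 myc genes lie above the blue points, lmo1-/- replicate 3 is the highest blue point for every myc gene but myclb, and the points of mxd3 and mxd1 overlap.

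*mych* was the most abundant family member in *TATA/TATA* tumors. Its level was 0.376, 0.312 and 0.636 RPKM across the *lmo1*-/- libraries against 4.77 and 6.31 RPKM across the *TATA/TATA* libraries. The genotypes did not overlap, and the lowest *TATA/TATA* library held 924 reads where the highest *lmo1*-/- library held 116. Its log2 fold change was 3.22 (SE 0.30, edgeR adjusted p = 0.000895), and it stayed past the threshold with each library left out in turn.

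*myca*, a zebrafish counterpart of MYC, stood at 0.276, 0.0335 and 0.588 RPKM across *lmo1*-/- libraries against 2.60 and 3.55 RPKM across *TATA/TATA* libraries. The *lmo1*-/- libraries differed widely among themselves, since replicate 2 held 4 reads on the gene (95% exact Poisson interval, 1.09 to 10.2, for counting error alone) and replicate 3 held 80. Its log2 fold change was 2.98 (SE 0.82, edgeR adjusted p = 0.0336). The call was lost without *lmo1*-/- replicate 1 (adjusted p = 0.0781), without *TATA/TATA* replicate 1 (adjusted p = 0.0965) and without *TATA/TATA* replicate 2 (adjusted p = 0.154).

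*mycb*, the other counterpart of MYC, had the largest SD relative to its mean within a genotype of all members (1.40 against 1.04 RPKM in *lmo1*-/-). It stood at 0.340, 0.137 and 2.65 RPKM across *lmo1*-/- libraries against 3.53 and 6.12 RPKM across *TATA/TATA* libraries. *lmo1*-/- replicate 3 stood apart from the other *lmo1*-/- libraries, with 353 reads on the gene compared with 41 and 16. The *TATA/TATA* libraries held 499 and 830 reads. The log2 fold change was 1.87 (SE 1.04, edgeR adjusted p = 0.212). Without *lmo1*-/- replicate 3 it was 3.85 (SE 0.50, edgeR adjusted p = 0.00421). In that same library the macrophage markers summed to 193 RPKM, compared with 137 and 108 RPKM in the other *lmo1*-/- libraries, and the 5 neutrophil markers to 97.2 RPKM, compared with 16.4 and 33.3 RPKM. The sympathoadrenal markers were highest there too, at 2529 RPKM compared with 1886 and 1754 RPKM. The part of these cells in the level of *mycb* was not tested.

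Both MYCL counterparts were higher in *TATA/TATA* tumors. *mycla* stood at 0.320, 0.359 and 0.605 RPKM across *lmo1*-/- libraries against 3.56 and 3.85 RPKM across *TATA/TATA* libraries. Its log2 fold change was 2.67 (SE 0.30, edgeR adjusted p = 0.00156), and it stayed past the threshold with each library left out in turn. *myclb* stood at 0.138, 0.0713 and 0.0983 RPKM across *lmo1*-/- libraries against 0.668 and 0.715 RPKM across *TATA/TATA* libraries, so that neither genotype reached 1 RPKM. The log2 fold change of *myclb* was 2.26 (SE 0.46, edgeR adjusted p = 0.00995 in the unfiltered fit). It lost the call without *TATA/TATA* replicate 1 (adjusted p = 0.117) and without *TATA/TATA* replicate 2 (adjusted p = 0.147), where the remaining *TATA/TATA* library is assumed to vary like the *lmo1*-/- libraries.

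The fish *mycn* gene, the counterpart of the transgene, was the lowest of the family in every library. It held 2, 2 and 12 reads in *lmo1*-/- libraries and 34 and 42 reads in *TATA/TATA* libraries, which is 0.0122, 0.0125 and 0.0660 RPKM against 0.176 and 0.227 RPKM. Of the 25459 genes with any read, 26.8% in *lmo1*-/- and 33.4% in *TATA/TATA* tumors had a mean RPKM as low or lower. Its log2 fold change was 2.27 (SE 0.85, edgeR adjusted p = 0.0925 in the unfiltered fit), and without *lmo1*-/- replicate 3 it was 3.42 (adjusted p = 0.0158). Whether some reads of the human transgene were counted on a fish *myc* gene was not tested.

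Summed over the 6 genes, the family stood at 1.46, 0.926 and 4.65 RPKM across *lmo1*-/- libraries against 15.3 and 20.8 RPKM across *TATA/TATA* libraries. In *TATA/TATA* tumors the order of the mean levels was *mych* (5.54 ± 1.09 RPKM; SD, n = 2), *mycb* (4.82 ± 1.83), *mycla* (3.70 ± 0.201), *myca* (3.07 ± 0.671), *myclb* (0.692 ± 0.0330) and *mycn* (0.201 ± 0.0360). The ranges of *mych* and *mycb* overlapped, as did those of *mycb* and *mycla*, whereas *mycla* and *myca* were separated by less than 0.1 RPKM. In *lmo1*-/- tumors the order was *mycb* (1.04 ± 1.40 RPKM; SD, n = 3), *mych* (0.441 ± 0.172), *mycla* (0.428 ± 0.154), *myca* (0.299 ± 0.278), *myclb* (0.103 ± 0.0337) and *mycn* (0.0302 ± 0.0310), and the ranges of neighbors down to *myclb* overlapped. *mycb* led there through replicate 3 alone. Its share of the family's RPKM was 23.3% and 14.8% in *lmo1*-/- replicates 1 and 2 and 57.1% in replicate 3, compared with 23.1% and 29.5% in the *TATA/TATA* libraries. *mych* took 31.2% and 30.4% of the family's RPKM across the *TATA/TATA* libraries and 25.7%, 33.8% and 13.7% in the *lmo1*-/- libraries.

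**Figure D2:**
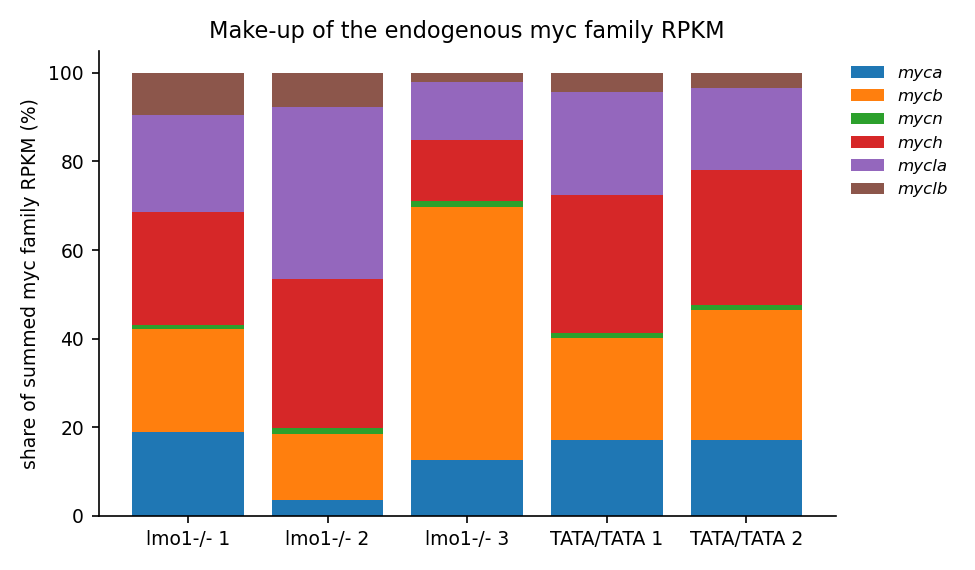
Stacked bars of the share of each myc gene, in percent, in the summed RPKM of the 6 endogenous myc genes of each library. mycb takes 57.1% in lmo1-/- replicate 3 and at most 29.5% in the other libraries, and mycn takes the least in each library, at most 1.42%.

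*max*, the obligate partner of the MYC and Mxd proteins, was the most abundant member in every library. It stood at 16.2, 16.4 and 19.4 RPKM across *lmo1*-/- libraries against 28.9 and 27.1 RPKM across *TATA/TATA* libraries. The RPKM values did not overlap between genotypes, which was also true, with *TATA/TATA* higher, of 54.2% of the tested genes. After TMM scaling the log2 fold change was 0.23 (SE 0.14, edgeR adjusted p = 0.244), and with the authors' library totals in place of TMM it was 0.69 (adjusted p = 0.021). That change of scaling moved the median of all tested genes from -0.05 to 0.41. The 32.3% of tested genes whose TMM-scaled read counts were higher in *TATA/TATA* without overlap included *max* as well as *myca*, *mycb*, *mych* and *mycla*.

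*mxi1*, a Max partner that represses transcription, stood at 5.60, 2.22 and 8.94 RPKM across *lmo1*-/- libraries against 10.8 and 9.92 RPKM across *TATA/TATA* libraries. The spread among the *lmo1*-/- libraries was larger than the difference between genotypes (log2 fold change 0.49 ± 0.44 SE, edgeR adjusted p = 0.431). *mxd3*, which in mammalian cells is expressed in S phase, stood at 0.986, 1.35 and 1.57 RPKM across *lmo1*-/- libraries against 1.70 and 1.46 RPKM across *TATA/TATA* libraries. Its genotypes overlapped, and the log2 fold change of -0.18 (SE 0.29, edgeR adjusted p = 0.678) became 0.28 with the authors' library totals. *mxd1*, which in mammals rises as cells leave the cycle and differentiate, stood at 2.05, 1.00 and 3.15 RPKM across *lmo1*-/- libraries against 1.41 and 1.61 RPKM across *TATA/TATA* libraries. The *TATA/TATA* libraries lay between the *lmo1*-/- replicates, with a log2 fold change of -0.86 (SE 0.43, edgeR adjusted p = 0.172) that was called when *lmo1*-/- replicate 2 was left out (-1.14, edgeR adjusted p = 0.0436).

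**Figure D3:**
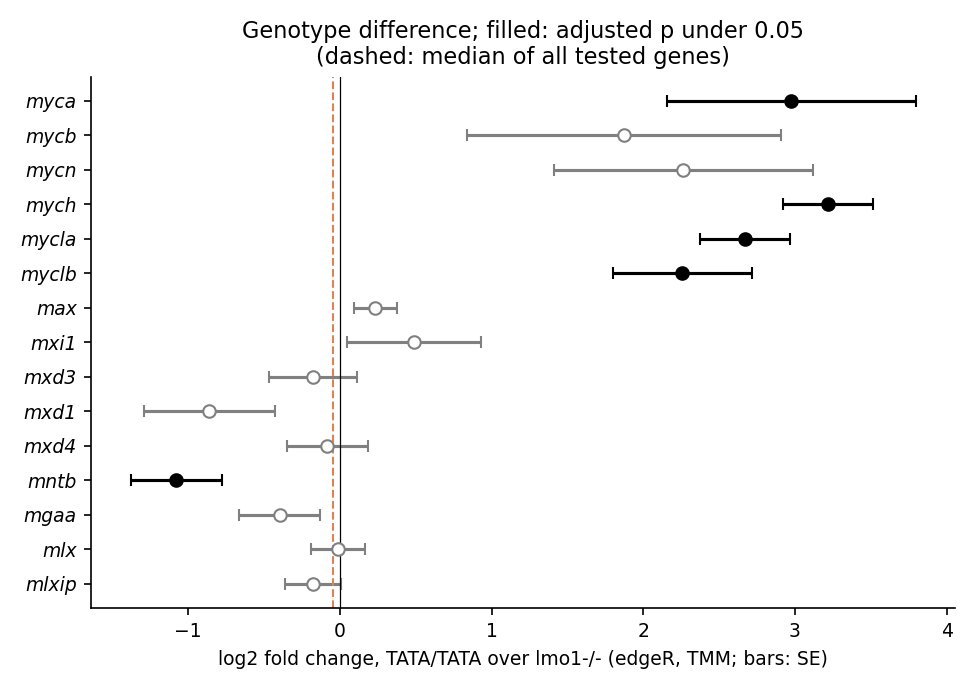
Log2 fold change of TATA/TATA over lmo1-/- with its SE for the 10 members and for 5 further genes of the Max and Mlx network, from edgeR with TMM scaling, with filled points for an adjusted p under 0.05 and a dashed line at the median of all tested genes (-0.05). The myc genes lie between 1.87 and 3.22, and the partner genes between -1.08 and 0.49.

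The balance between the family and its partners differed with the *myc* levels. *max* had 11.1, 17.8 and 4.17 times the summed RPKM of the *myc* genes in *lmo1*-/- libraries and 1.89 and 1.31 times in *TATA/TATA* libraries. The summed RPKM of *mxi1*, *mxd3* and *mxd1* was 5.91, 4.94 and 2.94 times that of the *myc* genes in *lmo1*-/- libraries, and 0.908 and 0.626 times in *TATA/TATA* libraries. In contrast, *max* stood at 1.87, 3.60 and 1.42 times the summed RPKM of these 3 repressors in *lmo1*-/- libraries, a range that holds both *TATA/TATA* values (2.08 and 2.09). These ratios leave out the MYCN transgene. The fish gene *dbh*, whose promoter drives it, stood at 546, 514 and 688 RPKM across *lmo1*-/- libraries. Across *TATA/TATA* libraries *dbh* stood at 419 and 369 RPKM (log2 fold change -1.02, edgeR adjusted p = 0.00472). Whether the transgene differed between the genotypes was not tested.

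Of 5 further network genes listed in the files, 1 was called lower in *TATA/TATA* tumors, a share near the 16.7% of all tested genes, and none higher, by edgeR at an adjusted or an unadjusted p and by DESeq2. *mntb*, a counterpart of MNT, a Max partner that represses the targets of MYC in resting and cycling cells, stood at 4.53, 2.08 and 3.72 RPKM across *lmo1*-/- libraries against 2.12 and 2.29 RPKM across *TATA/TATA* libraries. Its RPKM ranges overlapped through *lmo1*-/- replicate 2, and its log2 fold change was -1.08 (SE 0.30, edgeR adjusted p = 0.0347). That call was lost, leaving 0 network genes called lower, without *lmo1*-/- replicate 3, without either *TATA/TATA* library and with the library totals of the authors. *mxd4*, a further Mxd repressor, differed by -0.08 on the log2 scale (edgeR adjusted p = 0.84) and *mgaa*, a counterpart of the Max partner MGA, by -0.40 (adjusted p = 0.298). *mlx*, the Max-like partner of the glucose-responsive Mondo factors, differed by -0.01 (edgeR adjusted p = 0.962) and *mlxip*, a Mondo factor, by -0.18 (adjusted p = 0.5). The other 5 symbols of that list were not analysed here.

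Genes that act on MYC at the chromatin or on the stability of its protein differed in part. Of 35 tested cofactor and turnover genes, 2 were higher and 8 lower in *TATA/TATA*, with a median log2 fold change of -0.14 beside -0.05 for all tested genes. The 8 called lower are a share of the list above, and the 2 called higher a share below, the 16.7% and 19.9% of all tested genes. *kat5b* and *kat5a*, which encode Tip60 acetyltransferases, stood at 3.97 and 5.21 RPKM on average in *lmo1*-/- and at 1.47 and 2.71 RPKM in *TATA/TATA* tumors, and fell by 1.89 (edgeR adjusted p = 0.00118) and 1.37 (adjusted p = 0.0044) on the log2 scale. *sin3ab*, a scaffold of the complex that Mxd proteins recruit, fell from 23.5 to 10.4 RPKM (log2 fold change -1.66, edgeR adjusted p = 0.00743). The most abundant cofactors, *hdac1* (-0.03), *smarcb1a* (0.01) and *ruvbl1* (-0.14), had log2 fold changes near 0 that did not pass the threshold. *aurka*, whose kinase shields MYCN protein from degradation, stood at 0.185, 0.0980 and 0.281 RPKM across *lmo1*-/- libraries against 1.15 and 1.35 RPKM across *TATA/TATA* libraries (log2 fold change 2.31 ± 0.40 SE, edgeR adjusted p = 0.00689), and passed the minimum level only through the latter. *skp2*, a ubiquitin ligase subunit that targets MYC, rose by 0.92 (edgeR adjusted p = 0.0309). *fbxw7*, the subunit that marks phosphorylated MYC for the proteasome, differed by -0.97 on the log2 scale (edgeR adjusted p = 0.0162). *gsk3ab* (-0.04) and *usp7* (0.06) did not pass the threshold. With the library totals of the authors, 5 of these genes were called higher and 4 lower. Without *TATA/TATA* replicate 1 or 2, none was called higher and 1 and 2 were called lower, and without *lmo1*-/- replicate 1, 6 were called higher and 8 lower.

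Textbook targets of MYC did not share a direction after TMM scaling. Of 37 tested target genes, 3 were higher, 3 were lower and 31 did not pass the threshold, with a median log2 fold change of -0.07. The shares called are below those of all tested genes in both directions. The summed RPKM of the targets ranged from 4850 to 5627 in *lmo1*-/- libraries and stood at 5379 and 5377 in *TATA/TATA* libraries. That sum is dominated by *nme2b.1*, and without it the targets summed to 2786, 2787 and 2741 RPKM in *lmo1*-/- libraries and to 3487 and 3435 RPKM in *TATA/TATA* libraries, which lie above all 3, as did the RPKM of 54.2% of all tested genes. *ncl* and *npm1a*, nucleolar proteins of ribosome production, had log2 fold changes of 0.02 (edgeR adjusted p = 0.962) and -0.23 (adjusted p = 0.401). *ldha*, lactate dehydrogenase, stood at 9.87, 13.9 and 13.6 RPKM across *lmo1*-/- libraries against 59.3 and 61.3 RPKM across *TATA/TATA* libraries (log2 fold change 1.81 ± 0.22 SE, edgeR adjusted p = 0.00197). *mcm5*, a subunit of the replicative helicase, and *pkma*, pyruvate kinase, rose by 1.22 (edgeR adjusted p = 0.0411) and 0.76 (adjusted p = 0.0175) on the log2 scale. *ddx21*, a nucleolar RNA helicase, fell from 253 to 110 RPKM on average (log2 fold change -1.68, edgeR adjusted p = 0.00292), *pes*, a factor of the large ribosomal subunit, differed by -1.02 (adjusted p = 0.00879), and *nme2b.1*, a nucleoside diphosphate kinase, by -0.82 (adjusted p = 0.0449). With the authors' library totals 10 targets were called higher and 1 lower, without *lmo1*-/- replicate 1 there were 5 and 6, and without either *TATA/TATA* library 1 and 1.

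Of 8 tested genes that MYC is known to lower in other systems, 1 was higher and 2 were lower, shares near the 19.9% and 16.7% of all tested genes. Without either *TATA/TATA* library none was called. *cdkn1bb*, a counterpart of the cell cycle inhibitor p27, rose by 0.87 (edgeR adjusted p = 0.028), while *gadd45ab*, a stress response gene, differed by -1.79 (adjusted p = 0.0195) and *ndrg2* by -1.07 (adjusted p = 0.0271). *ndrg1a* ranged from 1.99 to 13.6 RPKM in *lmo1*-/- libraries and did not pass the threshold (0.51; adjusted p = 0.601).

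Macrophage, neutrophil, lymphoid and proliferation markers were mostly higher in *TATA/TATA*, as the *myc* genes were, whereas sympathoadrenal, erythroid and interrenal markers were mostly lower. Of 17 macrophage markers, 16 were called higher in *TATA/TATA*, with log2 fold changes from 2.64 to 5.88. The median over the list was 3.87, above the value of each *myc* gene. *cd74a* and *cd74b*, invariant chains of antigen presentation, had log2 fold changes of 3.87 and 3.95. The summed RPKM of the *myc* genes was 1.07%, 0.856% and 2.41% of that of the macrophage markers in *lmo1*-/- libraries and 0.553% and 0.719% in *TATA/TATA* libraries. Of that of the proliferation genes it was 2.50%, 1.99% and 4.91% in *lmo1*-/- libraries and 7.30% and 9.37% in *TATA/TATA* libraries. Few genes hold most of both sums, *cd74a* and *cd74b* for the macrophage markers and *pcna* for the proliferation genes. *pcna* stood at 45.3, 35.3 and 69.9 RPKM across *lmo1*-/- and at 132 and 138 RPKM across *TATA/TATA* libraries. Its log2 fold change, 1.00, was the lowest of its list. Neither ratio was computed without these genes. Of 11 lymphoid markers 5 were tested, and 4 of these were called higher, led in level by *cd4-1* (log2 fold change, 5.0). All 4 passed the minimum level only through the *TATA/TATA* libraries, so that their direction was fixed by that minimum, as was true of 3 of the macrophage markers. The same held for 1 gene called higher in the neutrophil list and 1 in the proliferation list. Of 12 proliferation genes 10 were called higher, with log2 fold changes from 1.00 to 2.79 over the list, which became 5 without *TATA/TATA* replicate 2. The proliferation genes summed to 58.4, 46.4 and 94.7 RPKM in *lmo1*-/- libraries and to 210 and 222 RPKM across *TATA/TATA* libraries. For the macrophage and proliferation sums, as for that of the *myc* genes, *lmo1*-/- replicate 3 was the highest *lmo1*-/- library. That library was also the highest for the sympathoadrenal, neutrophil, erythroid and Schwann sums, but not for the lymphoid, fibroblast and interrenal sums. Of 15 sympathoadrenal markers 6 were called lower, and 2 without either *TATA/TATA* library. Among the remaining marker lists, 3 of 5 tested neutrophil genes were called higher, and 3 of 4 tested erythroid genes and 1 of 3 tested interrenal genes were called lower. The erythroid marker *gata1a*, below the minimum level, was called higher in the unfiltered fit (3.54, edgeR adjusted p = 0.0496), where 3 erythroid genes were called lower. It held 22, 1 and 1 reads in *lmo1*-/- and 170 and 134 reads in *TATA/TATA* libraries. Of all tested genes, 19.9% were called higher and 16.7% lower, and shares of so few genes say little beside these. Of 9 fibroblast markers only *col1a1b* was tested, through the *TATA/TATA* libraries alone, and called higher. All 9 had a log2 fold change above 0 in the unfiltered fit, where the median of all genes was 0.06. Their sum was 0.697 to 1.61 RPKM in *lmo1*-/- and 4.91 and 5.38 RPKM in *TATA/TATA* libraries. Some of them rested on few reads, with at most 16 for *pdgfra* and 10 for *lum* in any library, and the *lum* values overlapped between genotypes. Of 7 Schwann cell markers only *erbb3b* and *egr2b* were tested, through the *TATA/TATA* libraries alone, whereas *mpz*, which encodes a myelin protein, was called lower in the unfiltered fit (-1.21, edgeR adjusted p = 0.0458) and *sox10* and *foxd3* held at most 14 reads and 1 read per library. Without either *TATA/TATA* library the erythroid genes called lower became 1, while the interrenal and fibroblast calls were lost; the interrenal call was also lost without *lmo1*-/- replicate 2 and became 3 without replicate 3, where the neutrophil genes called higher became 5. The part of other cells and of cycling cells in the *myc* levels was not tested, and fewer cells that express a gene cannot be told apart from less RNA per cell in sorted bulk samples.

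**Figure D4:**
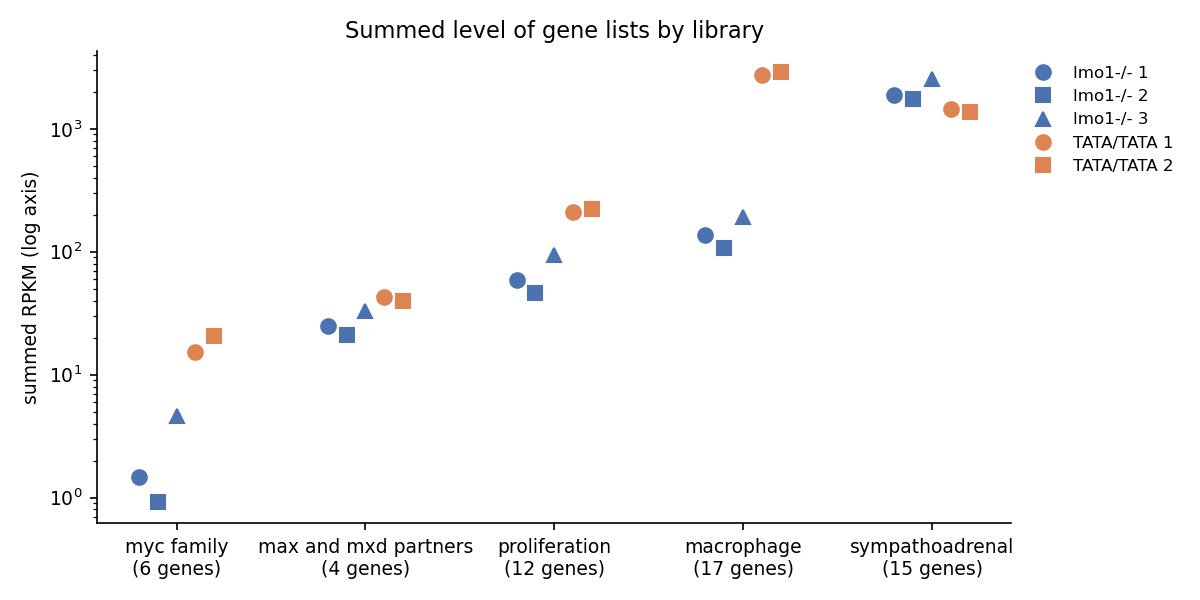
Summed RPKM on a log axis of 5 gene lists in each library, with blue symbols for lmo1-/- and orange symbols for TATA/TATA libraries. The myc family spans 0.926 to 20.8 RPKM, macrophage markers 108 to 2888 RPKM and proliferation genes 46.4 to 222 RPKM. The myc family, macrophage and proliferation lists place the libraries in the order lmo1-/- replicates 2, 1 and 3, then TATA/TATA replicates 1 and 2. The max and mxd partners are higher in TATA/TATA replicate 1 (42.8 RPKM) than in replicate 2 (40.1 RPKM). The sum of the sympathoadrenal markers, held mostly by th, dbh and hand2, is lowest in the TATA/TATA libraries.

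The tested genes with the pattern nearest to that of *mycb*, the *myc* gene with the highest mean over all libraries (2.56 RPKM, and 2.48 RPKM for *mych*), were sought by the root mean square distance of centered log2 TMM-scaled read counts over the 5 libraries. Without *lmo1*-/- replicate 3 the mean was 2.53 RPKM for *mycb* and 2.94 RPKM for *mych*, so that the choice of *mycb* rests on that library. The nearest genes were *fosl2* (0.174), an AP-1 transcription factor, *CU639397.1* (0.231) and *pik3ap1* (0.314), an adaptor of phosphoinositide 3-kinase signaling in immune cells. The level of *fosl2* was 0.135, 0.0597 and 1.09 RPKM across the *lmo1*-/- libraries against 1.35 and 1.85 RPKM across the *TATA/TATA* libraries, and its high replicate 3 follows from how it was chosen. The genes nearest to *max* were *ccdc22* (0.0216), *nfkbil1* (0.0227) and *vars2* (0.0228).

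**Figure D5:**
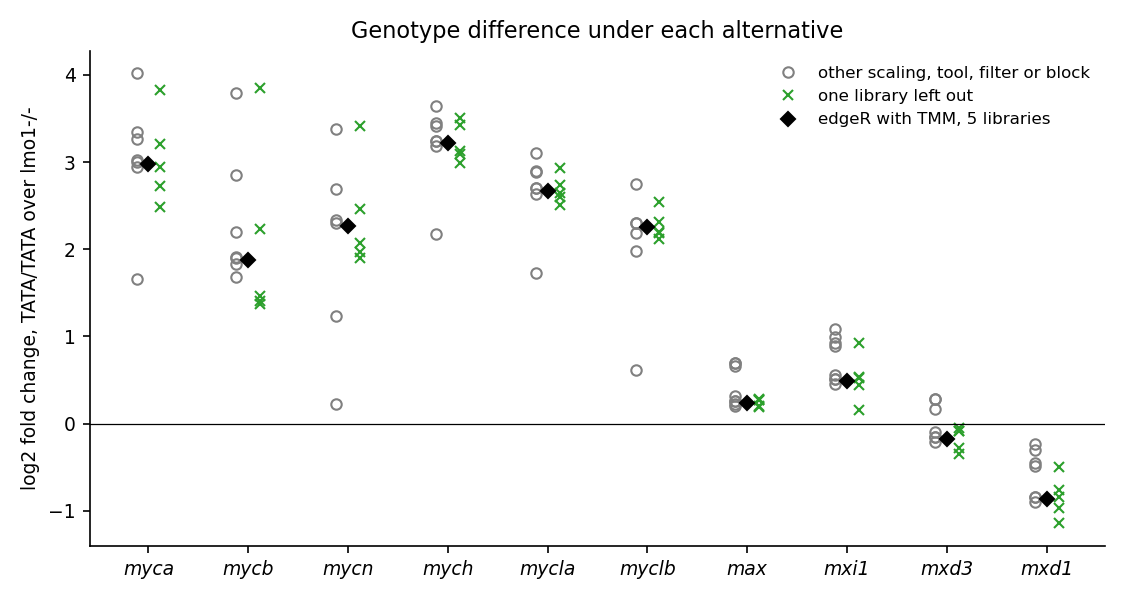
Log2 fold change of each member under edgeR with TMM and all 5 libraries (black diamonds), under other scalings, tools, filters and the replicate block (open circles) and with 1 library left out (crosses). Every value of the 6 myc genes, max and mxi1 is above 0, every value of mxd1 is below 0, and mxd3 has values on both sides.

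Under all alternatives tried, the 6 *myc* genes kept a log2 fold change above 0, from 0.22 for *mycn* with limma on log2(RPKM + 1), a scale that compresses low values, to 4.02 for *myca* with the replicate number as a block. That block takes *lmo1*-/- replicate 3 out of the fold change, since no *TATA/TATA* library has that number. Since the values of these genes did not overlap between genotypes, the alternatives could hardly have reversed their direction. *mych* ranged from 2.18 to 3.64 and *mycla* from 1.72 to 3.11 over 12 alternatives each. *mxd1* stayed below 0 in 12 of 12 alternatives, and *mxd3* was above 0 in 3 of 12.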

How the data were processed

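Ribosome-depleted, strand-specific RNA-Seq of sorted EGFP+ tumor cells was analysed. The authors aligned paired-end reads to danRer10 with HISAT2 2.1.0 and counted them by gene name on Ensembl genes with htseq-count in reverse-stranded mode. Per library, the deposited files hold raw counts, the exon length in bp and RPKM, which the authors scaled by mapped reads. The authors' library totals were recovered from counts, RPKM and exon length, and 70.9% to 76.6% of them were counted on genes.

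From the counts, edgeR 4.0.16 (R 4.3.3) was fitted to all 5 libraries with genotype as the term. TMM factors were 0.766 to 0.963 for *lmo1*-/- and 1.25 to 1.28 for *TATA/TATA* libraries. Each SE is the fold change (log2) over the root of its F value. Alternatives were DESeq2 1.42.0, limma 3.58.1 on log2(RPKM + 0.1) and log2(RPKM + 1), other scalings and filters, a replicate block and each library left out. edgeR with TMM, limma on log2(RPKM + 0.1) and DESeq2 were tried on simulated data with the same dispersion for all genes. The replicate block and the other settings were not. The members and gene lists were chosen with earlier results of these data known. Named genes were all members and network genes, the 3 most abundant and up to 3 most changed genes per direction of each further list, and the 2 most abundant markers of a list where given; 1 gene that this rule names is not reported here. No coordinates or sequences are given. Intervals and floors cover counting error alone.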

Additional observations from a re-analysis of the deposited data

How the results depend on the processing

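The fold changes of the members and the counts of genes called were recomputed under up to 8 other settings and with each of the 5 libraries left out, where the genes passed the filter. Counts of members called cover at most the 8 members above the minimum level, so they leave out *mycn* and *myclb*. The 6 *myc* genes kept their direction throughout, which values without overlap between genotypes made likely in advance. The direction of *mxd3*, which was never called, reversed from -0.18 to 0.28 with the library totals of the authors, to 0.28 with limma on log2(RPKM + 0.1) and to 0.17 with limma on log2(RPKM + 1). In these 3 settings, which use library totals or RPKM without TMM or median-ratio size factors, *max* passed the threshold (0.69, 0.69 and 0.67). With median-ratio size factors in place of TMM, *max* did not pass it by edgeR (0.26, adjusted p = 0.209) or DESeq2 (0.26, adjusted p = 0.141). Limma also moved *mycn* past it on both scales (1.23 and 0.22) and *mycb* on the second (1.68), and members called higher went from 3 to 5 on the second. For the same 3 settings, target genes called higher went from 3 to 10, 13 and 14, and cofactor and turnover genes called higher from 2 to 5 in each and called lower from 8 to 4, 3 and 3. Target genes called lower became 1 with the totals of the authors and 5 with DESeq2. The network gene called lower, *mntb*, was lost in all 3 (0 called). Over all tested genes, 2678 were higher and 2255 lower, which became 869 lower with the totals of the authors, and 4308 and 4581 higher with 906 and 941 lower with limma. The share of calls that were higher moved from 54.3% to 82.2%, 82.6% and 83.0%, as the median moved from -0.05 to 0.41, 0.43 and 0.35. A mean of at least 5 RPKM left 868 higher and 960 lower of 6173 genes. It kept *max* and *mxi1* alone of the members, with 0 members called higher, 0 network genes called lower, and 0 cofactor and turnover genes called higher and 4 lower, since fewer genes are tested. The replicate number as a block left 1 residual degree of freedom. Replicate 3 exists only for *lmo1*-/-, so the block fits that library exactly and the fold changes rest on replicates 1 and 2. It called *mycb* (3.79), *mycn* (3.37, in the unfiltered fit) and *mxi1* (1.0) higher. Of the 8 members above the minimum level, 5 were called higher. Without *lmo1*-/- replicate 3 and with no block, the log2 fold changes of *mycb*, *mycn* and *mxi1* were 3.85, 3.42 and 0.93. Deviations from the genotype mean in same-numbered libraries had correlations of 0.01 and -0.02 across genes over 2 pairs, and the numbers were not taken to pair the samples. With only 2 *TATA/TATA* libraries these deviations mirror each other in that genotype, so the correlations cannot settle whether the samples were paired.

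When 1 library at a time was left out, the log2 fold change ranged from 2.48 to 3.83 for *myca*, 1.38 to 3.85 for *mycb*, 1.90 to 3.42 for *mycn*, 2.12 to 2.54 for *myclb* and -1.14 to -0.50 for *mxd1*. Counts of members called again leave out *mycn* and *myclb*. Members called ranged from 2 to 4 higher and 0 to 1 lower, network genes from 0 to 1 lower, target genes from 1 to 5 higher and 1 to 6 lower, and cofactor and turnover genes from 0 to 6 higher and 1 to 9 lower. All genes called ranged from 1405 to 3355 higher and 446 to 3101 lower, with the lowest counts where 1 *TATA/TATA* library was left, and the highest without *lmo1*-/- replicate 1. The cause of the other changes was not tested. Levels of a few reads, as for *mycn*, limit what these depths can resolve. For the marker lists, recomputed after seeing the data, macrophage genes called higher ranged from 13 to 17 over all alternatives, proliferation genes from 3 to 12, lymphoid genes from 0 to 4, and sympathoadrenal genes called lower from 2 to 7. The genes that MYC lowers ranged from 0 to 3 in each direction.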
